A study of Mus musculus with 16 samples.

Results

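The genes described here are 10 genes of tendon and cartilage measured in mouse tibialis anterior, a muscle of the front of the lower leg that ends in a long tendon. They are the transcription factors Scx, Mkx and Sox9, the membrane protein Tnmd, and the matrix proteins Fmod, Kera, Chad, Comp, Thbs4 and Acan. Members were chosen by name: a probe belonged to the set if its RefSeq accession maps to one of these symbols. All 10 were found, as 10 of 24828 genes tested and 13 of 41174 different probes on the array, and all 13 probes passed the filter on dim probes. Sox9 had 3 probes, Thbs4 had 2 and each other gene had 1, and a gene with several probes is given by its brightest. The brightest probe of every member was well above background on all 16 arrays, so no value given for a member by that probe is a bound.

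The study bred mice of low birth weight by cutting the food of dams by 50% in week 3 of gestation, and compared their offspring with offspring of normally fed dams. Each kind of offspring was studied on calorie restriction (CR) and fed ad libitum (AL), which gave 4 groups: undernourished CR, undernourished AL, control CR and control AL. Every group held 8 mice, pooled 2 at a time into 4 samples, and each pool was hybridised to its own 1-colour array. The labels give no strain, sex, age or degree of calorie restriction, and pooling leaves the spread between single mice unmeasured.

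Tenocytes, the cells of tendon, lay down fibres of type I collagen, and small leucine-rich proteoglycans and thrombospondin-type proteins bind these fibres and organise them. Scx is the basic helix-loop-helix factor that marks tendon progenitors, Mkx is a homeobox factor needed for tendon collagen, and Sox9 is the main regulator of cartilage. In muscle these transcripts are usually ascribed to few cells, those of tendon, the muscle-tendon junction and the connective tissue between fibres. Which cells of these samples gave them was not measured. In such bulk RNA, fewer cells of a type and less RNA per cell cannot be told apart.

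Muscle fibre markers were high on every array, with a median over 10 markers of 8.78 to 9.51 on the scale used throughout, log2 signal relative to the 75th percentile of the same array. Myh4, a fast myosin, averaged 9.52, 10.24, 9.55 and 10.12 in undernourished CR, undernourished AL, control CR and control AL, which is a muscle profile. Several arrays also carried transcripts of other tissues. The median of 29 brain markers was -6.01 to -5.45 on the CR arrays, and on the AL arrays it was -3.43 to -1.65 in undernourished and -2.67 to 0.49 in control offspring. Of these 29, 16 to 20 were well above background on each CR array and 20 to 29 on each AL array, and the log2 of their summed signal was 4.87 to 4.98 in undernourished CR, 4.84 to 5.75 in undernourished AL, 4.89 to 5.30 in control CR and 5.35 to 7.64 in control AL. Within control AL the median was 0.49 and 0.07 in replicates 1 and 2, against -2.05 and -2.67 in replicates 3 and 4. The median of 15 skin markers was -1.39 in undernourished CR replicate 2, -1.62 in undernourished AL replicate 3 and -0.40 to 0.49 in control AL replicates 1 to 3, and -3.95 to -2.96 on every other array. The median of 6 liver markers was -2.04 in undernourished AL replicate 3 and -5.63 to -4.47 elsewhere. All AL arrays were on slides 1 and 2, read on 1 scan day, and all CR arrays were on slides 3 and 4, read on another, so offspring diet and slide cannot be told apart. Replicates 1 and 2 of each group shared a slide with replicates 1 and 2 of the other maternal diet, and so did replicates 3 and 4.

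**Figure D1:**
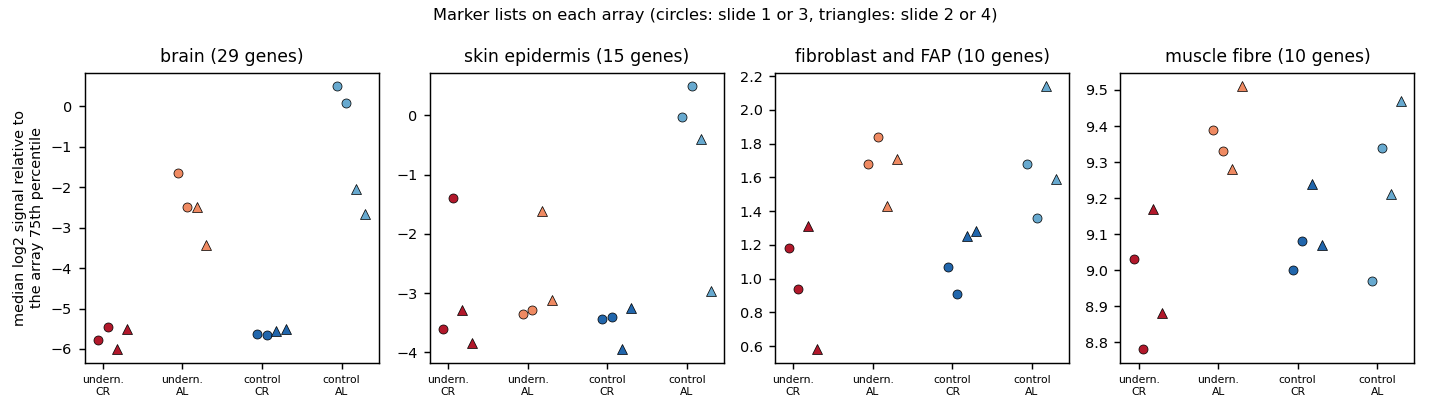
Median log2 signal, relative to the array's 75th percentile, of 4 marker lists on each of the 16 arrays (vertical axes, a separate range in each panel), by group (horizontal axes; "undern." is undernourished). Brain markers stood at -6.01 to -5.45 on the CR arrays and higher on every AL array, skin markers were raised on 5 arrays, and muscle fibre markers lay between 8.78 and 9.51.

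In offspring of control dams, calorie restriction went with higher Scx and with lower Mkx, Sox9, Chad and Kera. These 5 of 10 genes passed the test (limma, adjusted p under 0.05 over all genes, 2-sided), 1 higher and 4 lower. Over all genes 32.3% passed, 17.2% higher and 15.1% lower, so the 5 of 10 members are to be read against a background in which many genes passed. That split of 4259 genes higher and 3749 lower moved with the scaling, to 5546 and 3266 with quantile normalization, 4165 and 7838 with normexp background correction, 4361 and 7981 without the filter on dim probes, and 11383 and 2609 with the authors' values. The median change was -0.89 over the 10 members and 0.06 over all genes. Brain and skin markers fell in the same comparison (27 of 29 and 12 of 15 called lower, medians -4.92 and -2.43), as did 4 of 10 fibroblast markers (median -0.34), for which the log2 of the summed signal was 7.68 to 8.10 in control CR and 7.99 to 8.73 in control AL with all 10 well above background on every array. Of 10 muscle fibre markers 2 were called lower (median -0.14). With an index of all 29 brain markers as a covariate, Scx (1.23, adjusted p = 0.0343) and Mkx (-1.27, 0.0293) kept their calls. Chad (-1.37, 0.073), Kera (-1.84, 0.0789) and Sox9 (-0.36, 0.368) lost theirs. This index averages linear signals, and Camk2a, the marker with the highest mean, went the other way from the list median. Camk2a averaged 4.75, 3.67, 4.80 and 3.90 in undernourished CR, undernourished AL, control CR and control AL. The index was 0.144 in undernourished AL replicate 4 and 0.147 to 0.198 on the CR arrays. It followed the brain medians poorly, so a kept call does not set a gene apart from brain signal. With an index of the 13 brain markers not seen on every CR array, a setting chosen after seeing the data, none of the 5 was called: Scx gave 1.18 (adjusted p = 0.0637), Mkx -1.26 (0.0505), Chad -1.46 (0.0833), Kera -1.89 (0.102) and Sox9 -0.33 (0.493). Of these 5 genes, only Sox9 moved by more than 1.5 times under either index. Leaving out the 5 arrays on which skin or liver markers were raised (control AL replicates 1 to 3, undernourished AL replicate 3 and undernourished CR replicate 2) kept only replicate 4 in control AL, which was assumed to vary like the other groups, and none was called (adjusted p = 0.115 to 0.727). In that smaller fit, Scx changed by 0.99, Mkx by -1.58, Chad by -1.28, Kera by -1.80 and Sox9 by -0.22.

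**Figure D2:**
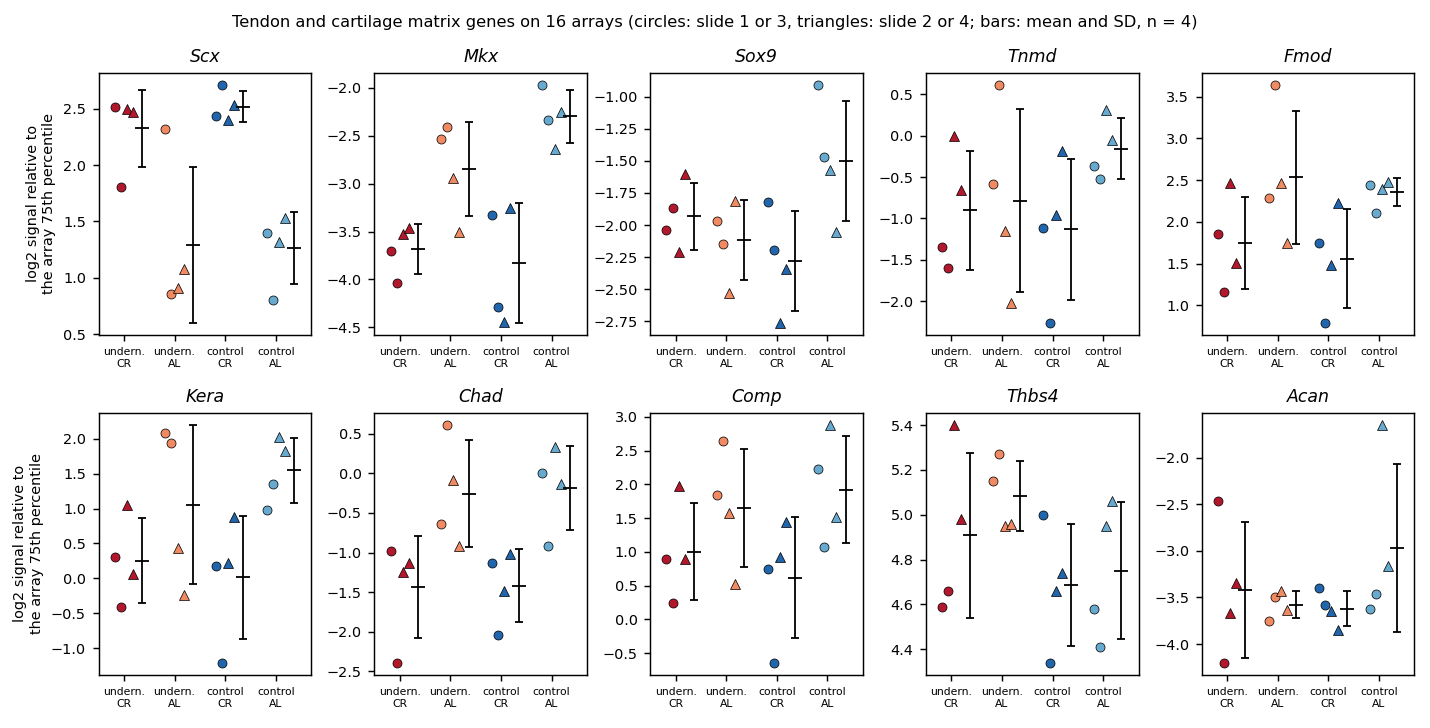
Log2 signal relative to the array's 75th percentile (vertical axes, a separate range in each panel) for each of the 10 genes on each array, by group (horizontal axes), with the mean and SD of 4 pools beside the points. Scx stood higher on all control CR arrays than on any control AL array, Mkx, Chad and Kera stood lower, and the points of Thbs4 and Acan overlapped in every comparison.

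Scx was the only member that rose. It stood at 2.44, 2.71, 2.40 and 2.53 in control CR, against 1.40, 0.80, 1.32 and 1.53 in control AL. The groups did not overlap, and the change was 1.26 ± 0.28 (log2, SE), or 2.39-fold higher (adjusted p = 0.00371). Without overlap, 17.3% of all genes were higher in control CR and 14.5% were lower, and 4 of 10 members separated, 1 higher and 3 lower. On the array's own scale the processed signal of Scx ran from 757.7 to 4660 over the 16 arrays.

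Mkx fell, in the opposite direction to Scx. Its values were -3.33, -4.29, -4.44 and -3.25 in control CR, against -1.97, -2.33, -2.64 and -2.25 in control AL. Every control CR array lay below every control AL array, with a change of -1.53 ± 0.29 (adjusted p = 0.00138). Mkx was dim in control CR, with a processed signal of 28.5 to 68.7. Over the alternative runs its change was -1.72 to -0.79. Sox9 stood at -1.82, -2.19, -2.76 and -2.34 in control CR, against -0.91, -1.47, -1.57 and -2.05 in control AL. Its groups overlapped at 1 array of each, and it fell by 0.78 (SE 0.25, adjusted p = 0.0255). The other Sox9 probes gave changes of -1.09 ± 0.23 (adjusted p = 0.00214 over all probes) and, for the dim probe that was well above background on 12 of 16 arrays, -0.40 ± 0.23 (0.204). Control AL replicates 1 and 2, the arrays with the highest brain marker medians, held the 2 highest Sox9 values of all 16. Without both, Sox9 changed by -0.47 (adjusted p = 0.251), and the call was also lost without control AL replicate 1 or 2 or control CR replicate 3 or 4 alone (adjusted p = 0.0545 to 0.0883). The Sox9 change was -0.36 and -0.33 with the brain indices as a covariate, beside -0.78 in the full fit. It was -0.22 without the 5 arrays with skin or liver markers. Sox9 is known to be active in brain glia and in skin as well as in cartilage. Whether brain or skin RNA had a part in its change was not tested.

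Kera and Chad are leucine-rich repeat proteins of the matrix: Kera (keratocan) is a keratan sulphate proteoglycan best known from cornea and also made in tendon, and Chad (chondroadherin) binds collagen and chondrocytes through integrin. The 250 bases before each start site are shown, with those of Tnmd, whose expression in tendon is known to need Scx, because Chad and Kera were low on the control CR arrays where Scx was high (RefSeq, GRCm38.p6, 5′ to 3′ on the gene's own strand). Capitals mark an E-box, the letters CANNTG that basic helix-loop-helix factors bind.
Chad, chr11:94564797-94565046, plus strand: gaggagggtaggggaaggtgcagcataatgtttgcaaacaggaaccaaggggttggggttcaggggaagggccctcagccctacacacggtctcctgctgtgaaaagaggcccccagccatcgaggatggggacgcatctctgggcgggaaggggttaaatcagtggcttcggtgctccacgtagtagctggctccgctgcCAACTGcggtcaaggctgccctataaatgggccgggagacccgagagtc
Kera, chr10:97606955-97607204, plus strand: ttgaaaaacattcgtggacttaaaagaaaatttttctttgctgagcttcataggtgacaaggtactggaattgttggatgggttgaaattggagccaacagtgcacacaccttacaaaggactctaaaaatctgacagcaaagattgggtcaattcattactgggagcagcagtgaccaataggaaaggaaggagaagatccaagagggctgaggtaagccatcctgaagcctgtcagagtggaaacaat
Tnmd, chrX:133850758-133851007, plus strand: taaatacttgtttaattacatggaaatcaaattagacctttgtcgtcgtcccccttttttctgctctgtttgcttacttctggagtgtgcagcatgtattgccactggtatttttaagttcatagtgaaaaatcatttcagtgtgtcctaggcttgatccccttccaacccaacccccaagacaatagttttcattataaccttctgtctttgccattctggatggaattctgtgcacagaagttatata
Chad held 1 E-box, CAACTG, 49 bases before the start, and 1 TATAAA. Kera and Tnmd held none in this window, and Kera held 2 matches to AACAAT, a core that SOX factors bind (either strand, overlapping no E-box). Over 32851 promoter windows of the same length, 66.2% held an E-box, 9.4% held AACAAT and 12.4% held TATAAA. Of the members with an entry, Fmod, Thbs4 and Acan each held 1 E-box. These matches describe letters and show no binding.

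Chad stood at -1.13, -2.04, -1.48 and -1.02 in control CR, against 0.00, -0.92, 0.33 and -0.13 in control AL. The groups did not overlap, although the highest CR value (-1.02) was close to the lowest AL value (-0.92), and Chad fell by 1.23 (SE 0.38, adjusted p = 0.0229). The call was lost without control AL replicate 1 or 3 or control CR replicate 2 (adjusted p = 0.0585 to 0.0751). Kera stood at 0.17, -1.21, 0.22 and 0.88 in control CR, against 0.98, 1.36, 2.03 and 1.82 in control AL. Again no array overlapped, and Kera fell by 1.53 (SE 0.53, adjusted p = 0.0389). Kera is the least firm of the 5 calls: it was lost in 13 of 19 alternatives, among them the removal of control AL replicate 2, 3 or 4 or control CR replicate 1, 2 or 3, with adjusted p = 0.0183 to 0.276 over all 19.

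The other 5 members missed the threshold in control offspring. Comp, a pentameric thrombospondin of tendon and cartilage, stood at 0.75, -0.64, 0.92 and 1.45 in control CR, against 2.23, 1.07, 2.88 and 1.52 in control AL, a change of -1.30 ± 0.53 (adjusted p = 0.0752, 95% interval -2.44 to -0.16). Fmod, fibromodulin, which binds collagen fibrils, stood at 1.75, 0.79, 1.48 and 2.22 in control CR, against 2.44, 2.11, 2.39 and 2.48 in control AL, a change of -0.79 ± 0.38 (adjusted p = 0.123). Tnmd, tenomodulin, a membrane protein of mature tenocytes, stood at -1.12, -2.26, -0.96 and -0.19 in control CR, against -0.37, -0.52, 0.31 and -0.05 in control AL, a change of -0.98 ± 0.52 (adjusted p = 0.171). In each of these 3 genes control CR replicate 2 was the lowest array of its group, and the groups overlapped. Acan, aggrecan, the large proteoglycan of cartilage, was dim and changed by -0.65 ± 0.39 (adjusted p = 0.221), with control AL replicate 3 at -1.65 and its other values in control offspring between -3.85 and -3.16. Thbs4, a thrombospondin of tendon and muscle, changed by -0.06 ± 0.20 (adjusted p = 0.837, 95% interval -0.49 to 0.36), and its second probe by -0.36 ± 0.28 (0.339).

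In offspring of undernourished dams, 2 of the 10 passed the same test: Scx was higher and Chad lower on calorie restriction. Over all genes 20.3% passed, 10.4% higher and 9.86% lower, so 2 of 10 is no more than the background share. The 2590 genes higher and 2449 lower became 3390 and 2040 with quantile normalization, 3029 and 10217 with normexp, 2897 and 7178 without the filter, and 10321 and 1527 with the authors' values. The median change was -0.41 over the members and 0.00 over all genes. Of the brain markers 22 of 29 fell (median -2.93), while no skin marker was called (median -0.01) and 2 of 10 fibroblast markers fell (median -0.25). Of 10 muscle fibre markers 3 fell (median -0.3).

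Scx stood at 2.52, 1.81, 2.50 and 2.47 in undernourished CR, against 2.32, 0.86, 0.91 and 1.08 in undernourished AL. CR replicates 1, 3 and 4 lay between 2.47 and 2.52, and replicate 1 of the AL group lay among the CR values, so the groups overlapped. The change was 1.04 ± 0.28 (adjusted p = 0.019). Scx kept its call with the index of 13 brain markers as a covariate (1.02, adjusted p = 0.022). That index was 0.0322 to 0.174 in undernourished AL, against 1 and 0.772 in control AL replicates 1 and 2. One slope was fitted for all groups, so a kept call here does not set a gene apart from brain signal. Scx lost its call when any 1 of undernourished AL replicates 2, 3 or 4 or undernourished CR replicates 1 or 3 was left out (adjusted p up to 0.0596). Chad stood at -0.98, -2.39, -1.24 and -1.13 in undernourished CR, against -0.64, 0.61, -0.08 and -0.92 in undernourished AL. It was the only member whose groups did not overlap here, where 13.4% of all genes were higher and 12.6% lower without overlap, and the nearest values were -0.98 in CR and -0.92 in AL. Chad fell by 1.17 (SE 0.38, adjusted p = 0.0426), kept its call with that index (-1.22, adjusted p = 0.0374), and lost it without undernourished AL replicate 2 or 3 or CR replicate 2, 3 or 4 (adjusted p = 0.0516 to 0.124). It was also lost without the 5 arrays named above (-0.79, adjusted p = 0.195), with slide as a random block (0.0776), with the replicate number as a block (0.0522) and with the authors' values (-0.73, 0.0878), while Scx was called without the 5 arrays (1.08, 0.0494).

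Mkx stood at -3.70, -4.04, -3.53 and -3.46 in undernourished CR, against -2.53, -2.41, -2.94 and -3.50 in undernourished AL. A single AL array, replicate 4, lay within the CR values, and the change of -0.84 ± 0.29 missed the threshold (adjusted p = 0.0554). Without that replicate Mkx passed (-1.06, adjusted p = 0.0239). Sox9 stood at -2.04, -1.87, -2.21 and -1.60 in undernourished CR, against -1.97, -2.15, -2.53 and -1.81 in undernourished AL. Its change was 0.19 ± 0.25 (adjusted p = 0.625), with a 95% interval of -0.34 to 0.72, beside an interval of -1.30 to -0.25 in control offspring. Kera changed by -0.81 ± 0.53 (adjusted p = 0.302), Fmod by -0.79 ± 0.38 (0.154), Comp by -0.65 ± 0.53 (0.419), Thbs4 by -0.17 ± 0.20 (0.572), Tnmd by -0.12 ± 0.52 (0.897) and Acan by 0.16 ± 0.39 (0.805). Kera spread widely in undernourished AL, at 2.09, 1.94, 0.43 and -0.24, against an SD of 0.61 in undernourished CR.

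**Figure D3:**
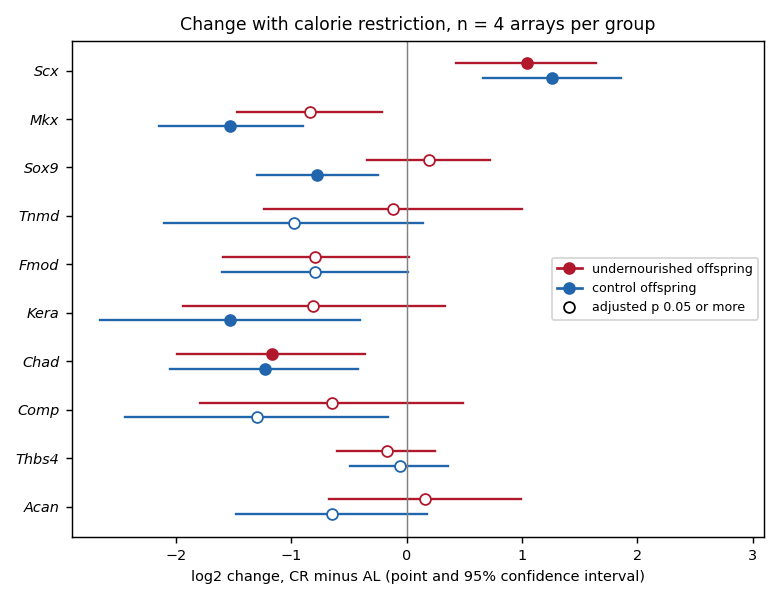
Log2 change with calorie restriction, CR minus AL (horizontal axis), for each gene (vertical axis), in undernourished and in control offspring, with the 95% confidence interval of the fit; filled points passed an adjusted p of 0.05. Scx lay to the right of 0 and Chad to the left in both kinds of offspring, and Mkx, Sox9 and Kera passed in control offspring only, with no difference between the kinds called.

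Whether the response to calorie restriction differed between the kinds of offspring was tested as an interaction, undernourished minus control. No member was called, against 1 of 24828 genes (0.00403%). Limma gave 2397 genes an unadjusted p under 0.05. The largest among the members was Sox9, at 0.97 ± 0.35 (unadjusted p = 0.0144, adjusted p = 0.493), and its other probes gave 1.09 ± 0.32 and 0.68 ± 0.33. With either brain index as a covariate the Sox9 value was 0.61. Mkx gave 0.69 ± 0.41, Scx -0.22 ± 0.40 and Chad 0.06 ± 0.54, and the intervals of Chad (-1.09 to 1.22) and Kera (-0.88 to 2.32) leave room for differences of more than 1 log2 unit.

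No member passed the test for maternal diet. In AL offspring 8 genes passed (0.0322%), none of them a member, while 4795 had an unadjusted p under 0.05. From the array values above, Sox9 gave -0.62 ± 0.25 (unadjusted p = 0.0243, adjusted p = 0.193), and Mkx by -0.55 ± 0.29 (adjusted p = 0.326). The skin and brain marker medians were also lower there (-2.72 and -1.60, with none of either list called). Sox9 gave -0.25 and -0.26 with the indices of 29 and 13 brain markers, -0.31 without control AL replicates 1 and 2, and 0.07 without the 5 arrays with skin or liver markers. Scx changed by 0.03 ± 0.28 (adjusted p = 0.967, interval -0.57 to 0.63), Chad by -0.08 ± 0.38 (0.932), and the remaining 6 members lay between -0.63 (Tnmd) and 0.33 (Thbs4). In CR offspring no gene passed (0%; 715 had an unadjusted p under 0.05), and the members lay between -0.19 (Scx) and 0.38 (Comp). No member separated the maternal groups without overlap, as 5.22% of all genes did in AL and 2.73% in CR offspring.

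Each slide held 2 arrays of either maternal diet, so the maternal difference could be read within slides, and in AL offspring the slides went different ways. Kera was higher in undernourished AL by 0.85 on slide 1 and differed by -1.82 on slide 2. Tnmd differed by 0.46 and -1.72 on these slides, and Comp by 0.60 and -1.15. Fmod, Chad, Scx and Thbs4 also had opposite signs on slides 1 and 2, while Sox9 (-0.88 and -0.36), Mkx (-0.32 and -0.78) and Acan (-0.08 and -1.12) were lower in undernourished AL on both. In CR offspring all 10 members lay between -0.41 and 0.65 on slides 3 and 4. With slide as a fixed block no member was called in AL offspring (Sox9 adjusted p = 0.125), while the count of all genes called there went to 1970. Leaving out control AL replicate 4 took that count to 2319, with no member among them.

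**Figure D4:**
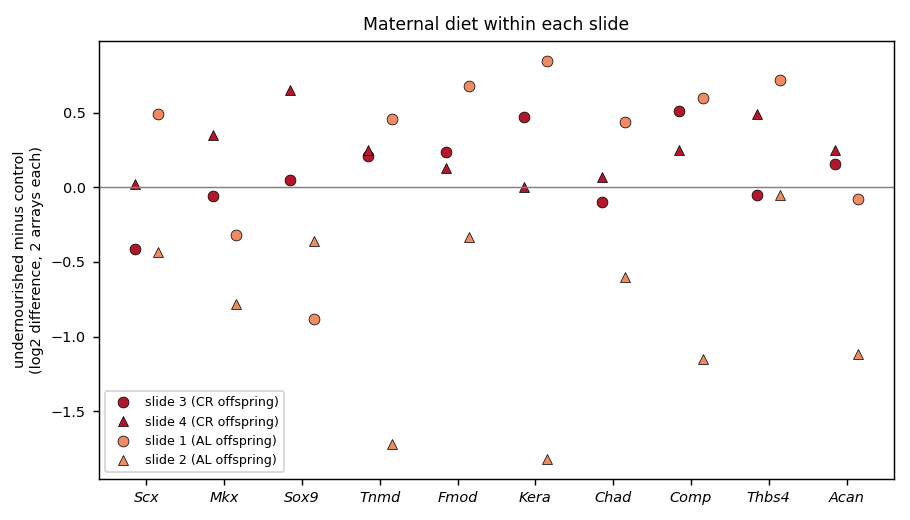
Undernourished minus control difference in log2 signal (vertical axis) for each gene (horizontal axis) within each slide, from 2 arrays of either maternal diet. On slides 1 and 2 (AL offspring) Kera, Tnmd and Comp lay on opposite sides of 0, and on slides 3 and 4 (CR offspring) every gene lay between -0.41 and 0.65.

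Within groups, the matrix and membrane genes were often low or high on the same arrays. Control CR replicate 2 held the lowest value of its group for 6 of 10 members, namely Tnmd, Fmod, Thbs4, Comp, Chad and Kera, and replicate 4 the highest for 6, against 26.6% and 27.5% of all genes. Undernourished CR replicate 2 held the lowest value for 8 of 10 members, where it was the lowest array for 21.7% of all genes. In undernourished AL, replicate 4 was lowest and replicate 2 highest for 6 of 10 members each, against 26.7% and 19.5% of all genes. Control AL replicate 2 was lowest for 6 of 10 members, against 27.7% of all genes. These counts describe the arrays and were not tested, since the members share the samples. As a measure of likeness, the root mean square difference over the 16 arrays was taken, after each gene was centred on its own mean. This measure includes differences between the groups as well as within them. Among member pairs it was smallest for Fmod and Chad (0.392), Tnmd and Comp (0.404), Fmod and Comp (0.440) and Tnmd and Kera (0.452).

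**Figure D5:**
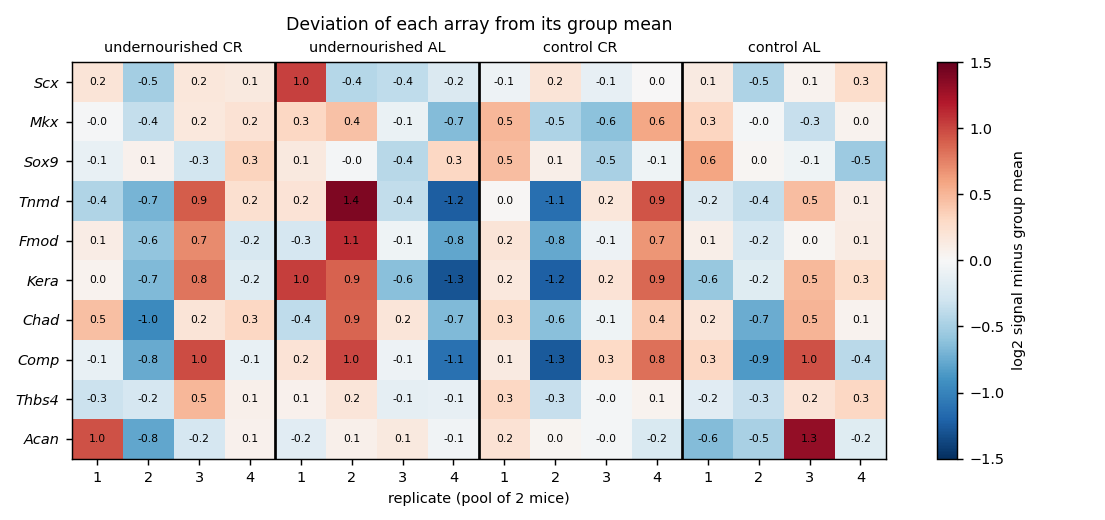
Difference of each array from the mean of its group in log2 signal (colour and printed number), for the 10 genes (rows) on the 16 arrays (columns, by group and replicate). Tnmd, Fmod, Kera, Chad and Comp were low together in control CR replicate 2, undernourished CR replicate 2 and undernourished AL replicate 4, and high together in undernourished AL replicate 2.

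The same measure was taken against 14937 genes with a symbol. Nearest to Kera were Col11a1 (0.341), a minor fibrillar collagen, Col1a1 (0.367), the main collagen of tendon, and Cilp2 (0.406), a cartilage matrix protein, beside a root mean square of Kera itself of 0.937. Cilp2 (0.374) was also near Chad, after Angptl7 (0.359) and Ctsk (0.369), the collagen-degrading cathepsin K. Fmod was nearest to Itgbl1 (0.322), Chrdl1 (0.323) and Fn1, fibronectin (0.331), and Comp to Cd209b (0.418), Thbs2, another thrombospondin (0.422), and Lepr, the leptin receptor (0.451). Scx was nearest to Pdzd3 (0.236), Lig4 (0.243) and St8sia5 (0.261), Mkx to Pianp, Pam and Fam180a (each 0.320), and Tnmd to S100a5 (0.404), Cybrd1 (0.411) and Cenpi (0.424). For Sox9 they were Tmed8 (0.229), Slc39a6 (0.234) and Pomc (0.251), for Thbs4 Tenm3 (0.148), Procr (0.177) and Pigc (0.198), and for Acan, which was dim, Ovch2 (0.403), Olfr1342 (0.409) and Lrrc10 (0.412). The distance is smaller for genes that vary little, such as Thbs4 with a root mean square of 0.292. The gene's own root mean square was 0.43 for Sox9, 0.574 for Acan, 0.644 for Fmod and 0.684 for Scx. For Mkx it was 0.732, for Tnmd and Chad 0.787 and for Comp 0.88.

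Related genes of tendon and cartilage were read from 8 lists of 81 genes, against the same background shares. Among 10 measured fibril collagen and cross-linking genes, 5 fell and 1 rose in control CR (median -0.50), and 3 fell in undernourished CR (median -0.32). Col1a2, a chain of type I collagen, stood at 4.43, 3.39, 4.09 and 4.75 in control CR, against 5.49, 5.55, 5.75 and 6.48 in control AL (-1.66 ± 0.33, adjusted p = 0.00189), and fell by 1.12 in undernourished CR (SE 0.33, adjusted p = 0.0288). Col3a1 fell in control CR (-1.70 ± 0.40, adjusted p = 0.00473) and in undernourished CR (-1.38 ± 0.40, 0.0249). Col5a2, of the fibril-nucleating type V collagen, also fell in both (-0.73 and -0.83, adjusted p = 0.0457 and 0.0363). Col1a1 fell by 1.51 in control CR (adjusted p = 0.0239).

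Of 11 measured cartilage matrix genes, 6 fell and 1 rose in control CR (median -0.64), and 3 fell in undernourished CR (median -0.48). Col2a1, the main collagen of cartilage, stood at -1.57, -2.46, -2.07 and -1.35 in control CR, against 0.37, 0.43, 0.93 and 1.81 in control AL. No array overlapped, and it fell by 2.75 (SE 0.41, adjusted p = 0.00025). In undernourished CR its change was -2.38 ± 0.41 (adjusted p = 0.0014). Cilp2 fell in control CR and undernourished CR (-1.48 and -1.29, adjusted p = 0.0118 and 0.036). Ucma and Prg4, the joint lubricant lubricin, fell in control CR (-2.75 ± 0.94 and -1.58 ± 0.46, adjusted p = 0.0365 and 0.0176). Ucma was dim, at -6.38, -7.34, -5.27 and -3.95 in control CR, and well above background on 3 of these 4 arrays. In undernourished CR it changed by 0.26 (0.873). Col9a2 fell in control CR and undernourished CR (-0.64 and -0.57, 0.000866 and 0.00384). Col9a1, of the same type IX collagen, was the gene that rose in control CR (1.25, 0.00231). It changed by 0.73 in undernourished CR (0.0585). Among 4 measured cartilage transcription factors, Sox6 rose and Sox8 fell (0.71 and -1.42) in control CR (adjusted p = 0.00238 and 0.00377), and none was called in undernourished CR, where Sox6 changed by 0.34 (0.12). Sox8 stood at -4.74, -4.91, -5.24 and -4.76 in control CR, against -2.83, -2.69, -4.01 and -4.43 in control AL, highest on replicates 1 and 2, the arrays with the highest brain marker medians.

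Of 12 measured genes of tendon transcription and signalling, 4 rose and 3 fell in control CR (median 0.11), and 2 fell in undernourished CR (median -0.01). Gdf7, a growth factor of the BMP family, fell in control CR and undernourished CR (-1.20 and -1.14, adjusted p = 6.54e-05 and 0.000227), and so did Egr2 (-1.12 and -0.89, 0.00152 and 0.0108). Egr1, a zinc finger factor of tendon that also answers to acute stimuli, fell by 1.55 in control CR (adjusted p = 0.0112), where the homeobox factor Six2 rose by 1.26 (0.00471). Egr1 stood at -0.44, -0.50, -0.14 and -0.17 in control CR, against 2.26, 1.87, 0.13 and 0.69 in control AL, also highest on replicates 1 and 2; for both Sox8 and Egr1 the part of brain RNA was not tested. Among 13 measured small leucine-rich proteoglycans other than the members, 2 fell in control CR, Omd and Dcn, decorin (-1.29 and -0.70, adjusted p = 0.000228 and 0.0211). In undernourished CR 1 fell, Omd (-0.76, 0.0123), and the list medians were -0.03 and -0.01. These counts are near the background, in which 15.1% and 9.86% of all genes were called lower. Dcn is also in the fibroblast list and Egr2 in the nerve sheath list. Of 3 other thrombospondins, Thbs1 fell in control CR and undernourished CR (-1.06 and -1.46, adjusted p = 0.0347 and 0.0111). Of 9 matrix proteases and inhibitors, 3 fell in control CR and 1 in undernourished CR (medians -0.72 and -0.42), the latter near the background of 9.86%. Mmp14, a collagenase of the cell surface, was among them in both (-1.24 and -1.03, adjusted p = 0.00159 and 0.00933). Mmp3 and Timp2 fell in control CR (-1.46 and -0.82, adjusted p = 0.0358 and 0.0119).

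Of 6 measured proteoglycans and link proteins of the aggrecan family, 3 fell in control CR and 2 in undernourished CR (medians -0.64 and -0.21). Ncan and Bcan, neurocan and brevican, are the forms of brain matrix, and like the brain markers they were low on the CR arrays. On all 4 control CR arrays Ncan failed to stand well above background, and it was at least 290-fold lower in control CR than in control AL (adjusted p = 4.38e-06; measured means -6.98 and 1.66). Bcan fell in control CR and undernourished CR (-6.50 and -4.44, adjusted p = 3.51e-05 and 0.00103), and Ncan in undernourished CR (-5.84, 0.000102). Vcan, versican, fell by 0.93 in control CR (adjusted p = 0.00963). Acan itself was not called. In the maternal comparisons none of the related genes was called.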

How the data were processed

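Total RNA (200 ng) was labelled with Cy3 and read on 1-colour Agilent arrays of 45018 spots, and the deposited scanner files, made with Feature Extraction 10.5.1.1 per the file headers, hold the processed intensity of each spot after background subtraction. The authors' values in the deposited value table, taken as log2, were used as an alternative. They are centred per probe (array medians -0.0994 to 0.0370) and run the same way as the scanner values (correlations of 0.762 to 0.922 over genes), with slopes of 0.514 to 0.638, so their exact scale stays unknown, and no source used here names their normalization. The CR files write the processed intensity to fewer digits than the AL files.

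Here control spots (leaving 43379) and the 53 to 176 outlier spots of each array were removed. None was saturated. The log2 intensity was set relative to each array's 75th percentile (387 to 829 units), and repeated spots were averaged. A probe entered if 4 or more arrays had it well above background (32081 probes; 66.4 to 78.5% of spots per array), and each gene was given by the probe with the highest mean. Accessions of 24844 probes matched RefSeq, for 17178 symbols; 16330 probes stayed unnamed. Of 24828 genes tested, 15020 had a symbol. All 16 arrays entered 1 fit with a mean per group (limma 3.58.1, R 4.3.3), with Benjamini-Hochberg adjustment over all genes, 2-sided, threshold 0.05. The number of arrays limits the precision. The fit was tested on simulated data before use. The labels do not say that pools of a group came from separate litters, so p-values measure the spread between these pools.

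Same-numbered AL arrays of the 2 maternal diets deviated together from their group means (correlations of 0.393, 0.123, 0.113 and 0.440 for the 4 numbers), and they also shared slides. With the replicate number as a block, 6 genes in place of 8 and still no member were called there. In the other comparisons at least 1 of the correlations was below 0.1 (-0.145 to 0.228).

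The members, lists and named genes were chosen with earlier results of these data known. Named were all members, up to 4 called genes per related list and comparison, the 3 nearest genes per member, and up to 3 genes per marker list. Col9a1 was added as the cartilage matrix gene that rose. Promoter sequence is from RefSeq (GRCm38.p6), which had an entry for 6 of the 10 members. Alternatives were quantile normalization, normexp background correction (offset 50, run on the median signal because the files hold no mean signal; up to 10 spots per array whose background far exceeded the signal were given the array's median background), no filter on dim probes, the authors' values, each probe alone, slide as a block, the replicate block, brain marker indices, and arrays left out.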

Additional observations from a re-analysis of the deposited data

Results flagged for a closer look

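In 2 of the 40 sets of 4 arrays, 1 array stood apart from the other 3 by more than Dixon's test allows at its 95% level, and both were Scx. Chance alone marks about 1 set in 20. Undernourished AL replicate 1 had a Scx value of 2.32, with the other 3 arrays of its group at 0.86 to 1.08. Undernourished CR replicate 2 had 1.81, with the other 3 at 2.47 to 2.52. The second is also the CR array with raised skin markers (median -1.39) and the lowest of its group for 8 of 10 members, and the part of that in its Scx value was not tested. Undernourished AL replicate 1 had the highest brain marker median of its group, -1.65. No explanation was weighed for either.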

How the results depend on the processing

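No member that was called changed direction in any alternative run, and no member was called in the maternal comparisons or the interaction in any of them. Over the alternatives, Scx in control offspring kept its call in 17 of 19 (0.99 to 1.73) and Mkx in 17 (-1.72 to -0.79). Chad kept its call there in 12, Sox9 in 9 and Kera in 6. In undernourished offspring Scx kept it in 13 of 18 and Chad in 9. In control offspring the count of 5 members called and 8008 genes called was 2 and 13992 with the authors' values, 2 and 4256 with the index of all 29 brain markers, 0 and 3329 with the index of 13, 3 and 4384 without control AL replicates 1 and 2, and 0 and 909 when the 5 arrays bearing skin or liver markers were dropped, where fewer samples entered. Without the dim-probe filter 12342 genes were called. In undernourished offspring the 2 members became 1 with slide as a random block (correlation 0.138), with the replicate block and without the 5 arrays, and the 5039 genes became 13246 with normexp, 10075 without the filter and 11848 with the authors' values. With the replicate block Kera in control offspring (adjusted p = 0.0594, leaving 4 members) and Chad in undernourished offspring (0.0522) lost their calls; the cause of these shifts was not tested. Members gained were Comp in control offspring (-1.21, normexp), Mkx in undernourished offspring (-0.72, normexp; -0.84, no filter; -1.06, without undernourished AL replicate 4) and Sox9 there (0.51, authors' values). The 8 genes called for maternal diet in AL offspring became 16 with quantile normalization, 0 with normexp or the authors' values, 1970 with slide as a fixed block, 4 and 5 with the brain indices, 3 without control AL replicates 1 and 2 and 1 without the 5 arrays. The 1 interaction gene became 12 with slide as a fixed block and 0 with normexp, the authors' values, the replicate block, either brain index or without control AL replicates 1 and 2. In CR offspring 1 probe was called when each probe was tested alone. Leaving out 1 array at a time gave 3 to 4 members and 6183 to 9067 genes in control offspring, 0 to 2 and 3667 to 4710 in undernourished offspring, 0 members and 2 to 2319 genes for maternal diet in AL offspring, 0 and 0 in CR offspring, and 0 members and 0 to 91 genes for the interaction; the counts of 2319 and 91 came without control AL replicate 4. The median change of all genes in control offspring, 0.06, was 0.16 with quantile normalization, -0.16 with normexp and 0.29 with the authors' values (0.00, 0.08, -0.24 and 0.24 in undernourished offspring).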
